A study of Mus musculus with 4 samples.

Results

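The core genes of TGF-beta signaling were examined in the embryonic lung of *Hmga2*-deficient mice: the ligands *Tgfb1*, *Tgfb2* and *Tgfb3*, the receptors *Tgfbr1*, *Tgfbr2* and *Tgfbr3*, the latent TGF-beta binding proteins *Ltbp1* and *Ltbp2*, and the intracellular inhibitor *Smad7*. Genes were taken from a list of 9 symbols, and all 9 were measured, each by 1 probe set with a single gene symbol, among 19938 genes in all. Affymetrix arrays carried total RNA of embryonic lung taken on day E18.5, 1 array per sample. The KO group held 2 arrays of *Hmga2*−/− lung on C57BL/6, and the WT group 2 arrays of *Hmga2*+/+ lung of the same strain and stage, with no treatment given in the labels. The knockout was not limited to a cell type, and the RNA came from all cells of the dissected lung. The labels call the arrays biological replicates, without saying whether an array stands for 1 embryo or several. Both WT titles carry the same sample name, whereas the KO titles carry a name each, so whether the WT arrays hold separate samples is not certain and p values measure only the spread between these arrays.

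TGF-beta ligands are secreted in a latent form, held by their own propeptide and tethered to the extracellular matrix by latent TGF-beta binding proteins. Once freed, for example by integrins, a ligand brings together the type II receptor, which binds it, and the type I receptor, which phosphorylates SMAD2 and SMAD3. SMAD7 is induced by the pathway and blocks the type I receptor. In the lung the pathway is known for its control of branching, of smooth muscle and of matrix deposition, and it restrains the division of epithelial cells.

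The arrays set the limits of every comparison. The median log2 value over genes was 8.34 and 8.19 in the KO arrays, against 8.19 and 8.34 in the WT arrays, and WT replicate 1 stood apart. It correlated with the other arrays at r = 0.975 to 0.987 across genes, whereas the KO arrays correlated with each other at 0.998. WT replicate 2 correlated with the KO arrays at 0.992 and 0.991, more than with WT replicate 1 at 0.987. The *Hmga2* probe set had log2 values of 9.65 and 9.39 in the arrays labelled KO, against 9.35 and 9.59 in the WT arrays. It thus does not separate the labels. Its place relative to the deletion is unknown here, and directions hold for the arrays as labelled. Marker genes of lung epithelium had mean log2 values of 12.12 and 12.05 in KO and 11.89 and 12.10 in WT. Those of mesenchyme had 11.92 and 11.91 in KO and 11.92 and 11.98 in WT. These means hide markers that went opposite ways. Of 10 epithelial markers 5 were higher and 5 lower in KO, with log2 differences from −0.56 to 0.85. Of 10 mesenchymal markers 6 were higher and 4 lower, with differences from −0.68 to 0.24. In bulk lung, fewer cells of a type and less RNA per cell cannot be told apart.

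The TGF-beta genes differed in both directions after *Hmga2*-KO, and none passed the test over all genes. *Tgfb2* and *Tgfb3* had higher means in KO, *Tgfbr2*, *Tgfbr3*, *Ltbp2* and *Tgfb1* lower ones, and *Tgfbr1*, *Ltbp1* and *Smad7* differed by at most 0.11 on the log2 scale. Of the 9 genes, 0 were called by limma at an adjusted p under 0.05, where 0.782% of all genes were. *Tgfb2* and *Ltbp2*, 2 of 9 genes, had an unadjusted p under 0.05, where 14.5% of all genes did. With the methods' t-test, 0 were called after adjustment, and *Tgfbr2* and *Tgfbr3* were the 2 with an unadjusted p under 0.05. For 5 of 9 genes the KO and WT arrays did not overlap, as they did not for 49.4% of all genes. Of these, 2 genes lay higher, where 17.6% of all genes did, and 3 lay lower, where 31.8% did, so these shares are near those of all genes. The median log2 difference of the 9 genes was −0.0016, and that of all genes −0.051. An exact two-sided permutation test of 2 arrays against 2 cannot go below p = 0.333, which each gene without overlap reached.

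**Figure D1:**
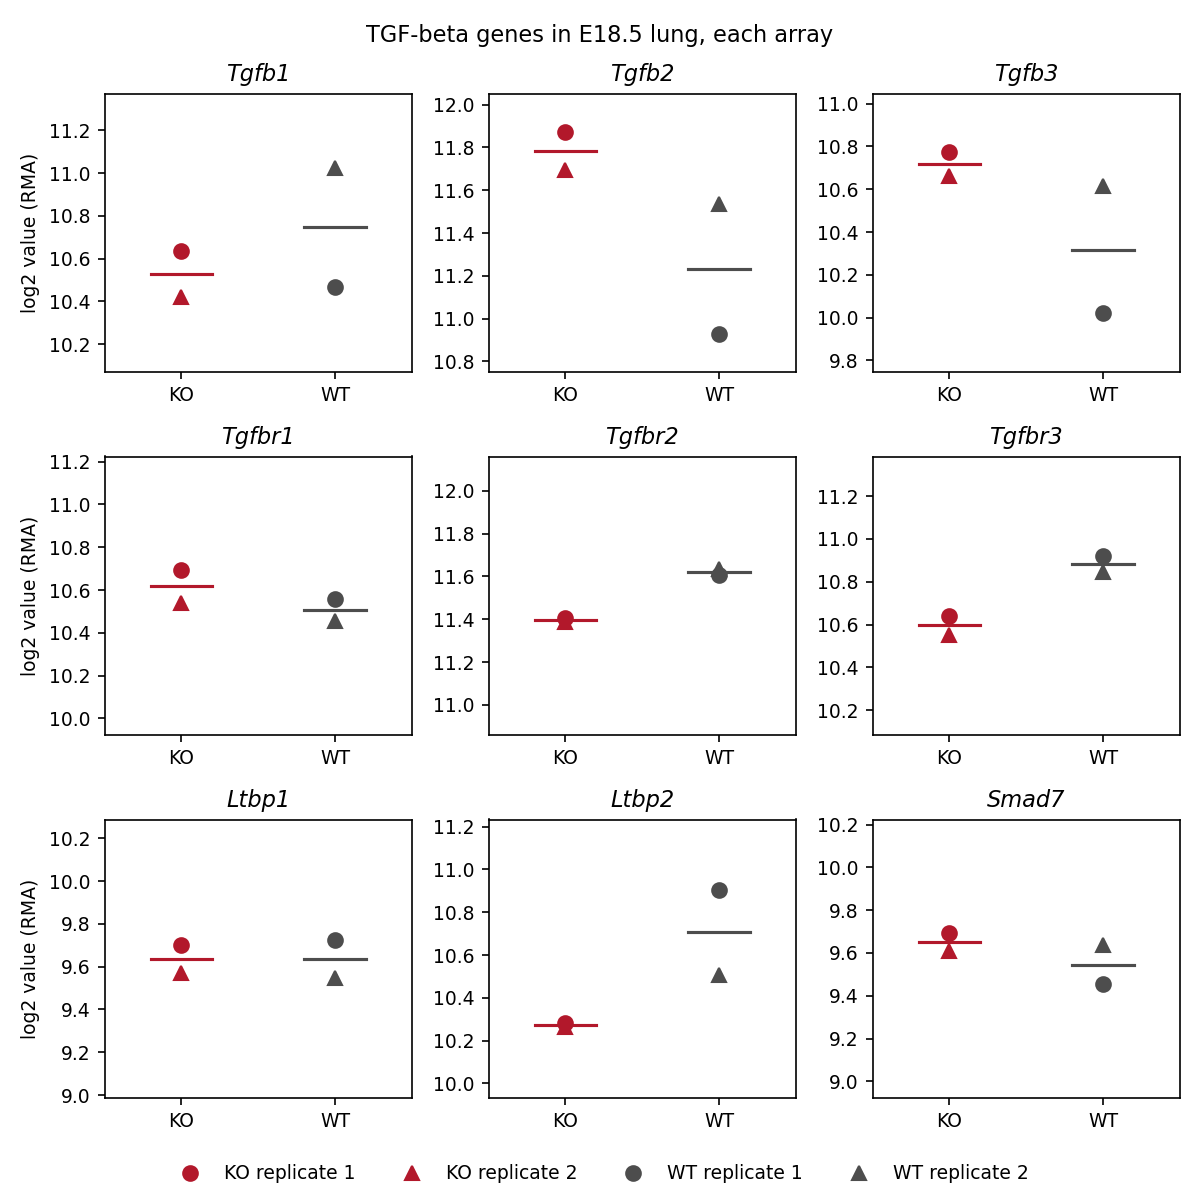
Log2 value (RMA, y axis) of each of the 9 genes on each KO array (left in each panel) and WT array (right), with a line at the mean of the 2 arrays; every panel spans the same log2 range. The KO arrays lie close together in each panel, and the WT arrays are far apart for *Tgfb1*, *Tgfb2*, *Tgfb3* and *Ltbp2*.

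Among the ligands, *Tgfb2* and *Tgfb3* had higher levels after *Hmga2*-KO. *Tgfb2*, whose loss in mice disturbs heart, lung and skeletal development, had log2 values of 11.87 and 11.69 in KO, against 10.93 and 11.53 in WT. Both KO arrays lay above both WT arrays, and WT replicate 1 was far lower than the other arrays. The mean was 11.78 ± 0.13 in KO and 11.23 ± 0.43 in WT (SD, n = 2 each). The difference, KO minus WT, was 0.55 (standard error 0.21, 95% interval 0.034 to 1.07, adjusted p = 0.323 from limma). It was 0.85 against WT replicate 1 alone and 0.25 against WT replicate 2 alone. *Tgfb3*, which is needed for palate fusion and for lung maturation, had 10.77 and 10.66 in KO, against 10.02 and 10.61 in WT. The groups did not overlap, but KO replicate 2 lay only just above WT replicate 2. Its difference was 0.40 (standard error 0.21, 95% interval −0.10 to 0.90, adjusted p = 0.427), with 0.70 against WT replicate 1 alone and 0.10 against WT replicate 2 alone. For both genes the gap between the WT arrays, 0.60 and 0.59, was larger than the mean difference between the groups.

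The third ligand went the other way. *Tgfb1*, the ligand best known from inflammation and fibrosis, had log2 values of 10.64 and 10.42 in KO, against 10.47 and 11.02 in WT. The groups overlapped, as WT replicate 1 fell between the KO arrays and WT replicate 2 lay above all others. The difference was −0.22 (standard error 0.21, 95% interval −0.72 to 0.28, adjusted p = 0.632). It was 0.060 against WT replicate 1 alone and −0.50 against WT replicate 2 alone.

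The balance of *Tgfb2* and *Tgfb1* within an array varied much less between replicates. Such a value compares 2 genes on the same array, so that a shift of the whole array drops out, and only its change between arrays can be read. These pairs were chosen after the values were seen. *Tgfb2* minus *Tgfb1* was 1.24 and 1.27 in KO, against 0.46 and 0.51 in WT, and the difference between the groups was 0.77 with a spread within a group of at most 0.047. *Tgfb3* minus *Tgfb1* was 0.14 and 0.24 in KO, against −0.45 and −0.41 in WT, a difference of 0.62. *Tgfb2* minus *Tgfb3* was 1.10 and 1.03 in KO, against 0.91 and 0.92 in WT, a difference of 0.15. All 3 ligands were lower in WT replicate 1 than in WT replicate 2, by 0.56 to 0.60. The medians of these 2 arrays over all genes, 8.19 and 8.34, lay much closer together. Over the 7 pairs of genes within a role the exact two-sided permutation p was 0.333, adjusted over the pairs to 0.389, wherever the groups did not overlap. That held for 6 of the 7 pairs, and it held for 63.7% of all pairs of the other genes of the pathway described further on.

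**Figure D2:**
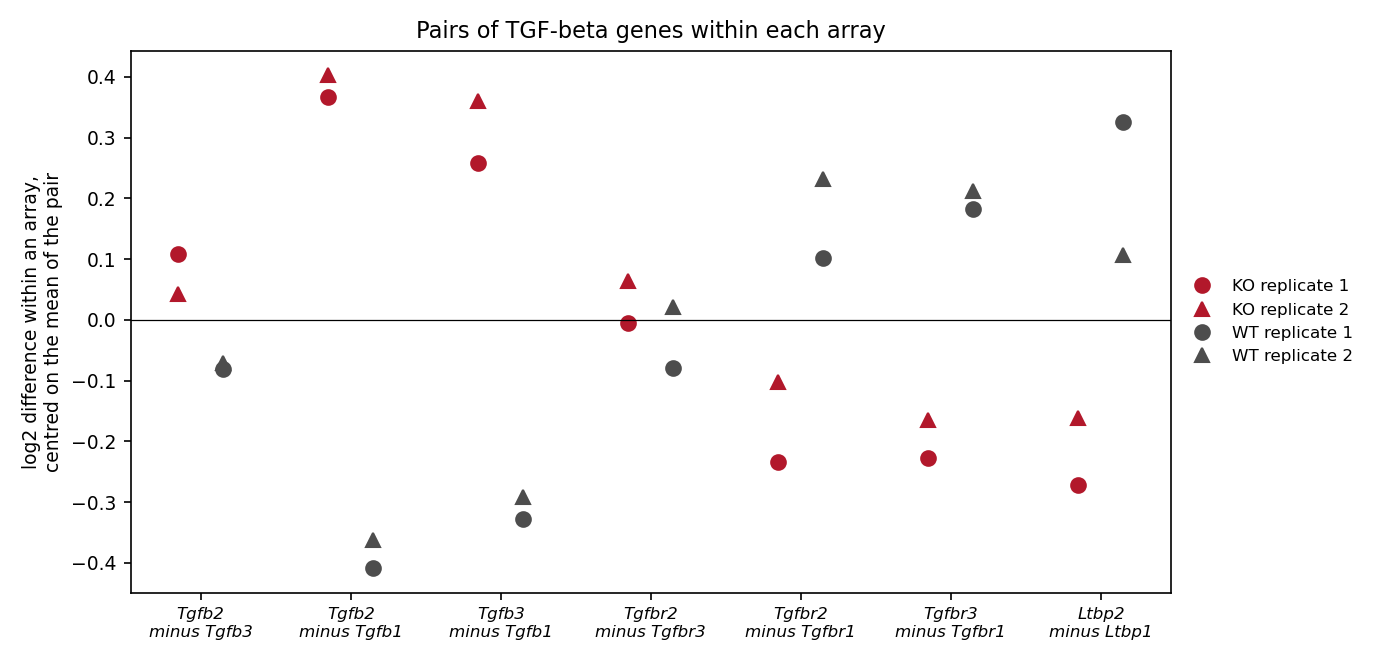
Log2 difference between 2 genes of the same role on each array (y axis), centred on the mean of the 2 group means of the pair, for KO (left of each position) and WT arrays (right). *Tgfb2* minus *Tgfb1* shows the widest gap between the groups, 0.77, with replicates within 0.047 of each other, and *Tgfbr2* minus *Tgfbr3* overlaps.

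Sequence upstream of the start of transcription is shown for *Tgfb2* as the ligand with the largest difference. RefSeq windows of 250 bases before to 50 bases after a gene's start (build GRCm38.p6) were at hand for 6 of the 9 genes. The window of *Tgfb2* lies on the minus strand at chr1:186705940-186706239, and capitals mark the TATA box core TATAAA and the SMAD box CAGAC, or its reverse complement.
*Tgfb2*: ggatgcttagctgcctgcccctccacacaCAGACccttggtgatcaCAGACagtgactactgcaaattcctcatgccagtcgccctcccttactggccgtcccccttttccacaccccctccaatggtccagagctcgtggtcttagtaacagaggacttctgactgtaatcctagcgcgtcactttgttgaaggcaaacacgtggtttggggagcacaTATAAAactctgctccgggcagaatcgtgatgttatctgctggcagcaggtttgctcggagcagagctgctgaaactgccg
The TATA box core, searched on both strands, begins at position −31 from the start and is found in 13.6% of 32851 such windows of mouse genes. The E box CACGTG begins at −51 and is found in 7.15% of them. The SMAD box, a short motif that 49.6% of all windows hold, occurs 2 times. A match of letters is a description and not a binding site.

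*Tgfbr2* and *Tgfbr3* were lower in both KO arrays than in both WT arrays, by small amounts with little spread. *Tgfbr2*, the type II receptor that binds the ligand, had log2 values of 11.41 and 11.39 in KO, against 11.61 and 11.63 in WT. The arrays of each group nearly coincided, and the groups did not overlap. The means were 11.40 ± 0.014 in KO and 11.62 ± 0.018 in WT (SD, n = 2 each). The difference was −0.23 (standard error 0.12, 95% interval −0.52 to 0.072, adjusted p = 0.442 from limma), which is a fold of 0.855. Limma draws the variance of each gene toward that of all genes, so the standard error exceeds the spread of these 4 arrays. The methods' t-test, which does not do so, gave an unadjusted p of 0.00507 and an adjusted p of 0.514. *Tgfbr3*, or betaglycan, a coreceptor that presents TGF-beta2 to the type II receptor, had 10.64 and 10.55 in KO, against 10.92 and 10.84 in WT. Its groups did not overlap either, and its difference was −0.28 (standard error 0.13, 95% interval −0.59 to 0.022, adjusted p = 0.378). The differences of both genes were alike against each WT array alone, −0.21 and −0.24 for *Tgfbr2* and −0.32 and −0.25 for *Tgfbr3*, so they did not rest on WT replicate 1.

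*Tgfbr1* was close to equal in the 2 groups. The type I receptor, which carries the signal to the SMADs, had log2 values of 10.69 and 10.54 in KO, against 10.56 and 10.46 in WT. The groups overlapped, with a difference of 0.11 (standard error 0.13, 95% interval −0.21 to 0.43, adjusted p = 0.712). Within an array, *Tgfbr2* minus *Tgfbr1* was 0.71 and 0.84 in KO, against 1.05 and 1.18 in WT, a difference of −0.34. *Tgfbr3* minus *Tgfbr1* was −0.051 and 0.012 in KO, against 0.36 and 0.39 in WT, a difference of −0.39. *Tgfbr2* minus *Tgfbr3* overlapped between the groups, with a difference of 0.059.

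The window of *Tgfbr2* is shown as that of the receptor with the least spread, from the minus strand at chr9:116175314-116175613, with capitals as before.
*Tgfbr2*: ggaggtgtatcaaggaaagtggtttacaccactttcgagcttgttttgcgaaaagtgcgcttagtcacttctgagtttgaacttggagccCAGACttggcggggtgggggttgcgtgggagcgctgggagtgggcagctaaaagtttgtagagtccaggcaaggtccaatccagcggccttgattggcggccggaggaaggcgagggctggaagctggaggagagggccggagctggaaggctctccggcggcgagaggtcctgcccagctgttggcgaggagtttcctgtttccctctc
It holds 1 SMAD box and no TATA box core, E box or cyclic AMP response element TGACGTCA, the last of which occurs in 1.79% of all windows.

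*Ltbp2* had lower levels after *Hmga2*-KO, and *Ltbp1* had nearly equal means. LTBP2 is a matrix protein of elastic fibres that, unlike LTBP1, does not bind latent TGF-beta. *Ltbp2* had log2 values of 10.28 and 10.26 in KO, against 10.90 and 10.51 in WT. The KO arrays were nearly the same, both were below the WT arrays, and WT replicate 1 was the highest. The difference was −0.43 (standard error 0.17, 95% interval −0.83 to −0.034, adjusted p = 0.316 from limma), with −0.63 against WT replicate 1 alone and −0.24 against WT replicate 2 alone. *Ltbp1*, which tethers latent TGF-beta to the matrix, had 9.70 and 9.57 in KO, against 9.73 and 9.55 in WT. The WT arrays enclosed the KO arrays, and the difference was −0.0016 (standard error 0.14, 95% interval −0.33 to 0.33, adjusted p = 0.997). A difference in *Ltbp1* of up to 0.33 either way is thus within the error of these arrays. Within an array, *Ltbp2* minus *Ltbp1* was 0.58 and 0.69 in KO, against 1.18 and 0.96 in WT, a difference of −0.43.

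The window of *Ltbp2* is given as that of the gene with the largest negative difference among the 9, from the minus strand at chr12:84876442-84876741, with capitals as before.
*Ltbp2*: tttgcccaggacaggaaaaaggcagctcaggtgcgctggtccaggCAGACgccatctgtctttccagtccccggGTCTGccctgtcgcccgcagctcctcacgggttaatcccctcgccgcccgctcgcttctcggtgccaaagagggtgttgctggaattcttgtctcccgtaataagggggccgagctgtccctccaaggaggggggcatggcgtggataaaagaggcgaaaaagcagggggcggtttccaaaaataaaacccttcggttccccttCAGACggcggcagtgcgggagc
It holds 3 SMAD boxes, and 2 Sp1 boxes, GGGCGG, which 35.7% of all windows hold.

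*Smad7* encodes the inhibitor that the pathway itself induces, and the arrays did not measure signaling itself. Its log2 values were 9.69 and 9.61 in KO, against 9.45 and 9.64 in WT. WT replicate 2 lay between the KO arrays, and WT replicate 1 was the lowest. The difference was 0.11 (standard error 0.14, 95% interval −0.22 to 0.43, adjusted p = 0.721), with 0.20 against WT replicate 1 alone and 0.015 against WT replicate 2 alone.

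**Figure D3:**
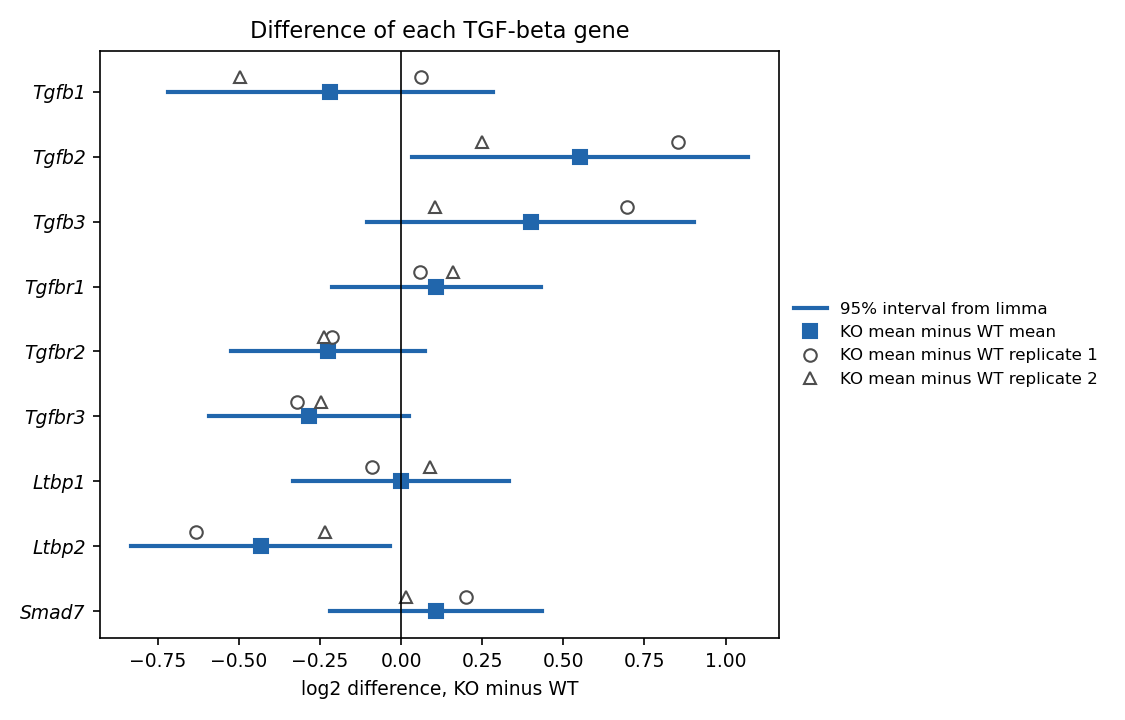
Log2 difference of KO minus WT (x axis) for each of the 9 genes (y axis). Squares with bars are the difference of the means with its 95% interval from limma, and open symbols are the KO mean minus each WT array alone; *Tgfb2* and *Ltbp2* have intervals that do not reach 0, and only *Tgfb1* and *Ltbp1* change sign between the WT arrays.

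Leaving out a WT array changed the size of several differences. Without WT replicate 2, the log2 difference was 0.85 for *Tgfb2*, 0.70 for *Tgfb3*, −0.63 for *Ltbp2* and 0.060 for *Tgfb1*. Without WT replicate 1, it was 0.25 for *Tgfb2*, 0.10 for *Tgfb3*, −0.24 for *Ltbp2* and −0.50 for *Tgfb1*. In these settings the WT group is a lone array that is assumed to vary like the KO arrays, so their p values hold none of the gap between the WT arrays.

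Other genes of the pathway were described in 5 lists by role, of which 87 genes besides the 9 were measured. Their median log2 difference was −0.013, 1 rose and 2 fell in limma's test, where 0.782% of all genes were called. At an unadjusted p under 0.05 there were 18, where 14.5% of all genes were, of which 7 were higher and 11 lower in KO. The genes that passed serve the activation of ligand, its capture and its response. *Itgb6*, the beta subunit of an epithelial integrin that frees latent TGF-beta1 and TGF-beta3, fell. It had log2 values of 9.76 and 9.52 in KO, against 10.74 and 10.64 in WT, a difference of −1.05 (standard error 0.14, adjusted p = 0.0387). *Dcn*, encoding decorin, a matrix proteoglycan that binds TGF-beta, rose, with 11.91 and 11.70 in KO, against 10.51 and 10.83 in WT, a difference of 1.13 (standard error 0.16, adjusted p = 0.0455). *Cdkn2b*, a cell-cycle inhibitor that TGF-beta induces in epithelial cells, fell, with 8.87 and 8.74 in KO, against 9.77 and 9.87 in WT, a difference of −1.01 (standard error 0.13, adjusted p = 0.0326). All 3 were also called by limma in every alternative that kept all 4 arrays. Their calls ended without KO replicate 1 or KO replicate 2, where almost no gene of the whole array was called. With the methods' t-test, 0 passed after adjustment, as 0 of all genes did. An unadjusted p under 0.05 was found for 14 in that test, and for 1660 of all 19938 genes.

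The widest differences of the 5 lists lay among genes that store or free the ligand. Of 21 measured genes of activation and latency, KO means were higher for 11 and lower for 10, and their median difference was 0.020. Besides *Itgb6* and *Dcn*, *Fmod*, encoding the related proteoglycan fibromodulin, had 11.45 and 11.54 in KO, against 9.50 and 10.41 in WT. Its difference of 1.53 (standard error 0.28, adjusted p = 0.0821) did not pass, and its WT arrays lay far apart. It passed with each array centred on its median (adjusted p = 0.0495), without the dimmest genes (0.0324) and with the replicate number as a block (0.00271). *Fbn2*, a fibrillin of the developing matrix, had a difference of 0.81 (adjusted p = 0.0963). Among the other latent TGF-beta binding proteins, *Ltbp3* had −0.10 (adjusted p = 0.712) and *Ltbp4* 0.044 (adjusted p = 0.891), and these were picked as relatives of *Ltbp1* and not by p.

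Receptor partners and SMADs had medians near 0, with members on both sides. Of 16 measured partners and inhibitors of the receptors, KO means were higher for 8 and lower for 8, and the median difference was 0.0024. Limma called 0 of them, where it called 0.782% of all genes. An unadjusted p under 0.05 was found for 2, and for 14.5% of all genes. The smallest p values were those of *Nedd4l*, a ubiquitin ligase that acts on SMADs and receptors (−0.36, adjusted p = 0.273), *Acvrl1*, an endothelial type I receptor (−0.33, adjusted p = 0.332), *Cd109*, a coreceptor that dampens signaling (0.44, adjusted p = 0.417), and *Strap*, a partner of SMAD7 at the receptor (0.28, adjusted p = 0.435). Of 15 SMADs and nuclear partners, KO means were higher for 9 and lower for 6, the median difference was 0.027, and 0 were called or had an unadjusted p under 0.05. The smallest p values there belonged to *Smad6*, the inhibitory SMAD of the BMP branch (0.32, adjusted p = 0.352), *Atf3*, a stress-induced factor that joins SMAD3 (−0.27, adjusted p = 0.418), *Smad2*, a receptor substrate (0.22, adjusted p = 0.483), and *Tgif1*, a corepressor (0.43, adjusted p = 0.485).

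Target genes of TGF-beta differed in both directions. Of 24 measured, KO means were higher for 11 and lower for 13, the median difference was −0.017, and *Cdkn2b* was the one called. At an unadjusted p under 0.05 there were 3 higher, where 5.88% of all genes were, and 7 lower, where 8.58% were. Next to *Cdkn2b* came *Ccn2*, a matricellular growth factor (−0.64, standard error 0.13, adjusted p = 0.0937), *Timp3*, an inhibitor of metalloproteinases (−0.59, standard error 0.14, adjusted p = 0.141), and *Nox4*, an NADPH oxidase (−0.57, standard error 0.14, adjusted p = 0.144). These were named for their small p, and their KO arrays lay below both WT arrays, as those of 31.8% of all genes did. In the activin and nodal branch, related ligands that share SMAD2 and SMAD3, KO means were higher for 5 of 15 genes and lower for 10. The median difference was −0.084 and 0 were called, where 0.782% of all genes were. An unadjusted p under 0.05 was found for 1, and for 14.5% of all genes. *Acvr1b*, the type I receptor of activin, had the smallest p (−0.41, adjusted p = 0.303), followed by *Inhbb*, a subunit of activin and inhibin (−0.31, adjusted p = 0.383), *Tdgf1*, the nodal coreceptor (−0.32, adjusted p = 0.384), and *Inha*, the alpha subunit of inhibin (−0.28, adjusted p = 0.531).

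**Figure D4:**
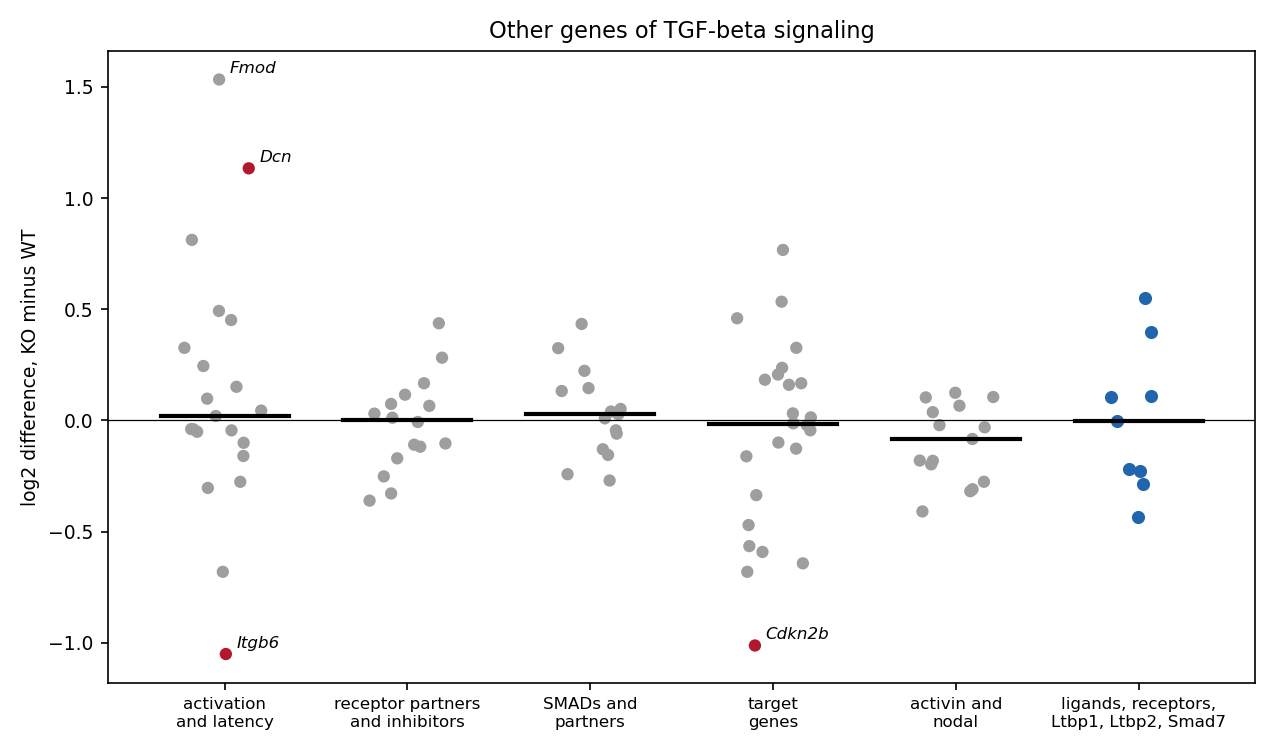
Log2 difference of KO minus WT (y axis) for each measured gene of 5 lists of TGF-beta signaling and, in blue on the right, for the 9 genes described first; red points passed limma's test over all genes, grey points did not, and bars are medians. The medians lie between −0.084 and 0.027, and *Itgb6*, *Cdkn2b*, *Dcn* and *Fmod* lie beyond 1 in size.

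Markers of several cell types differed between the genotypes beside these genes. Over all genes the KO mean was lower for 58.8% and higher for 41.2%. All 6 measured markers of alveolar type I cells were lower in KO, *Aqp5* and *Rtkn2* among them falling in limma's test, which called 0.782% of all genes, and their mean log2 value was 10.40 and 10.33 in KO, against 11.59 and 11.52 in WT. All 8 leukocyte markers were lower, with *Lyz2* called and mean values of 8.75 and 8.55 in KO, against 9.18 and 9.38 in WT. All 7 markers of atrial muscle were higher, with *Nppa* called and mean values of 10.35 and 10.16 in KO, against 9.51 and 9.33 in WT. All 9 measured markers of dividing cells were higher with 0 called and an unadjusted p under 0.05 for each, where 5.88% of all genes were higher at that p. Their mean was 11.35 and 11.25 in KO, against 9.97 and 10.74 in WT, with WT replicate 1 the lowest. For smooth muscle the mean was 10.12 and 9.97 in KO, against 9.75 and 9.98 in WT. There 6 of 7 markers were higher and 1 lower, with 0 at an unadjusted p under 0.05. For endothelium the mean was 11.65 and 11.59 in KO, against 11.87 and 11.97 in WT, with 6 of 7 markers lower and 1 higher. Of these endothelial markers 0 were called. An unadjusted p under 0.05 was found for 3, all lower in KO, where 8.58% of all genes were lower at that p. Also lower at that p were all 6 alveolar type I markers, 4 of 8 leukocyte markers and 2 of 5 mesothelial markers. Higher at that p were 6 of 7 atrial muscle markers. Of 5 mesothelial markers *Msln* fell, and cartilage, liver, thymus and the 2 measured erythroid markers had 0 called and at most 1 per list with an unadjusted p under 0.05. The part of these cell types in the values of the TGF-beta genes was not tested. The values are on a log2 scale without a call of absence, so no marker can be given as 0.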

How the data were processed

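The authors deposited log2 values of 30177 probe sets, which the submitters' processing notes credit to RMA and Affymetrix Expression Console, with versions not given in the sources used here. RMA removes background, makes the arrays' distributions alike by quantiles and combines probes, which can shrink differences. The sorted columns still differ by up to 0.362. No detection call comes with the values, and precision is limited by the number of arrays. The platform's annotation gives 1 symbol for 21789 probe sets, several for 1621 and none for 6767. The brightest single-symbol probe set stood for each of 19938 genes, of which 19856 matched RefSeq (GRCm38.p6) by Entrez ID.

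Groups came from the sample titles, and differences are KO minus WT. limma 3.58.1 in R 4.3.3 was fitted to all genes (lmFit and eBayes with no trend, 2 residual and 4.42 prior degrees of freedom) with Benjamini-Hochberg adjustment over all genes at 0.05. The code was tested on simulated data. Plots used matplotlib 3.10.9 (Python 3.11.15). Members and lists were chosen with earlier results of these data known. Named genes are the 9 members, *Hmga2*, the 4 genes of each list with the smallest p, and, named after their values were seen, the called markers, *Ltbp3* and *Ltbp4*. No gene was named for likeness of pattern. *Fbn1*, *Tgfbr3l* and *Cdkn1a* were not analysed here. *Fn1*, *Skil*, *Pmepa1* and *Thbs1* stand in 2 lists, and 5 genes of the target list are also markers of mesenchyme or smooth muscle. Alternatives tried were a block for the replicate number, arrays centred on their medians, cyclic loess, a filter on the dimmest 40 percent, probe sets averaged per gene, a robust eBayes with trend, each array left out in turn, a threshold of 0.10 and the methods' t-test. The methods name a one-way analysis of variance, though not for the arrays in particular, and for 2 groups it equals this pooled test.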

Additional observations from a re-analysis of the deposited data

How the results depend on the processing

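The sign of *Tgfb2*, *Tgfb3*, *Tgfbr1*, *Tgfbr2*, *Tgfbr3*, *Ltbp2* and *Smad7* was the same under every alternative run. *Tgfb1* ran from −0.50 to 0.060 and *Ltbp1* from −0.091 to 0.088 when 1 array was left out, and both turned sign. Of the 9 genes, 0 were called under any alternative that kept all 4 arrays. Over all genes, 156 were called, 16 higher and 140 lower. This became 294 with each array centred on its median (73 higher and 221 lower), 350 (80 and 270) with cyclic loess, 301 (74 and 227) when the dimmest 40 percent were filtered out, 457 (107 and 350) at a threshold of 0.10, 0 with the methods' t-test (1660 at an unadjusted p under 0.05) and 0 to 6292 when 1 array was left out. Of the other pathway genes, 3 were called, 4 with centring or the filter, each time with *Fmod* added, 6 at a threshold of 0.10, 0 with the methods' t-test and 0 to 23 when 1 array was left out.

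With the replicate block, 602 genes, 5 pathway genes and 0 of the 9 genes were called. Nothing in the labels says that a number marks a shared litter or day, and deviations of same-numbered arrays correlated at −0.238. The array medians matched in crossed pairs, 8.34 in KO replicate 1 and WT replicate 2, and 8.19 in KO replicate 2 and WT replicate 1. The crossed pairing, chosen after seeing the data, called 512 genes, 4 pathway genes (*Fmod* added, adjusted p = 0.0419) and 0 of the 9 genes.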
